A study of Homo sapiens with 4 samples.

Results

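The genes described here are the 5 members of the human PLAAT family (PLAAT1, PLAAT2, PLAAT3, PLAAT4 and PLAAT5) and 3 further genes known for their response to retinoic acid (RARRES1, RARB and CYP26B1). They are 8 of the 61541 genes in the table of RNA-seq read counts. The set was chosen because PLAAT4 was lower in cadmium-resistant than in control libraries of this study, so the values of PLAAT4 were used for choosing the members and are given below as a description, without a test. The other 7 were selected on family membership or known retinoid response.

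All 4 libraries came from MDA-MB-231, an established human breast cancer cell line of the estrogen receptor-negative, mesenchymal-like type. The 2 control libraries, called control 2 and control 3 after their columns, came from cells labelled as untreated. The 2 cadmium libraries, cadmium 1 and cadmium 2, came from cells passaged serially in cadmium sulfate until they grew at 10 µM cadmium. The cadmium cells were therefore a population selected over many passages rather than cells after a short exposure, and selection and cadmium exposure cannot be told apart. The labels call the controls biological replicates and the cadmium libraries only replicates, so the p-values measure the spread between these libraries, which may be partly technical.

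PLAAT enzymes (phospholipase A and acyltransferases) cut fatty acyl chains from membrane phospholipids and can pass them to the amine of phosphatidylethanolamine, which gives N-acylated lipids, the precursors of N-acylethanolamines such as anandamide. PLAAT4 is also called RARRES3 or TIG3, for retinoic acid receptor responder and tazarotene-induced gene, and it is known as a retinoid- and interferon-inducible growth suppressor that is low in many tumors. Retinoic acid acts through nuclear receptors that pair with RXR on direct repeats in DNA, and CYP26 enzymes hydroxylate it for removal.

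Total counts per library ranged from 51934729 to 61916007. The controls stood further apart than the cadmium libraries did: normalized counts are counts divided by a size factor of the library, and of 12924 genes whose mean normalized count reached 100, 14.2% differed more than 2-fold from one control to the other and 0.317% from one cadmium library to the other. The mesenchymal markers VIM, CD44, AXL, MSN and CAV1 lay between 20725 and 98154 normalized counts in all libraries. ESR1, the estrogen receptor, lay between 2.13 and 18.9, and PGR, the progesterone receptor, between 6.38 and 29.6, and the luminal factor FOXA1 between 0 and 14.8. Other luminal and epithelial markers were present: KRT8 lay between 48503 and 57920, ERBB2 between 4584 and 6773, EPCAM between 662 and 2410, GATA3 between 489 and 991 and CDH1 between 107 and 615. EPCAM was highest in control 2 and CDH1 in control 3, so neither separated the groups. Of the markers of other cells, the T cell gene CD3E was at 0 and the macrophage gene CD68 at 5.68 to 9.95 in every library. PTPRC, a leukocyte marker, ranged from 1.89 to 144 and PECAM1, an endothelial marker, from 160 to 842, and their part in any result was not tested.

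A sequence is shown for the member whose promoter held the letters of a retinoic acid response element. RefSeq promoter windows (GRCh38.p14, from 250 bases before to 50 bases after a gene start) were given for 5 of the 8 members: PLAAT1, PLAAT3, RARRES1, RARB and CYP26B1. PLAAT2, PLAAT4 and PLAAT5 were not searched here. The windows were searched on both strands for 2 half-sites in direct repeat with 5 bases between them. A half-site could read AGGTCA, the consensus, or any of the variant forms, which read AGTTCA in one case, GGGTCA in another and GGTTCA in the last. RARB, which encodes retinoic acid receptor beta, held the only match among these members, with its first base at position -53 from the start, and 29 of 27305 genes with a window (0.106%) held one. The stretch below is chr3:25428163-25428262 on the plus strand, with the element in capitals (half-site, 5 bases, half-site).

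RARB: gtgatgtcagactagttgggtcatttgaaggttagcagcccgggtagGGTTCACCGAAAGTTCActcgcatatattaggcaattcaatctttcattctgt

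The core of the metal response element, the site that the zinc- and cadmium-responsive factor MTF-1 is known to bind, was searched as TGCACNC or TGCGCNC. It was present in at least 1 window of PLAAT1 (position -152), PLAAT3 (positions -160 and -199 in one window), RARB (position -183, and -25 in another window) and CYP26B1 (position -212), and in 9128 genes (33.4% of those with a window). The AP-1 site, TGACTCA or TGAGTCA, matched no window of these members, while 1651 genes (6.05%) held one. These matches describe letters in the windows and are no evidence of binding. The study cites reports that MTF-1 bound the consensus metal response element with excess zinc but not with cadmium.

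PLAAT4 lies at chr11:63536808-63546462 on the plus strand (hg38), in a stretch of chromosome 11 that also holds PLAAT5, PLAAT2 and PLAAT3. Control 2 and control 3 gave 1556 and 1346 raw counts of it, and the cadmium libraries 339 and 455. After normalization these were 1472 and 1431 against 337 and 449. Both cadmium libraries therefore lay far below both controls, the controls were close to each other, and cadmium 2 was the higher of the cadmium libraries. The control mean of 1452 ± 29.1 (SD, n = 2) was 3.69-fold the mean of the cadmium libraries, 393 ± 79.1 (SD, n = 2). DESeq2 gave a log2 fold change (cadmium over control) of -1.88, standard error 0.30. By each pairing of a cadmium with a control library, PLAAT4 was at 22.9%, 23.6%, 30.5% and 31.4% of the control. In bulk RNA, fewer cells that carry a transcript and less of it per cell cannot be told apart.

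PLAAT3, also known as adipocyte phospholipase A2 for its role in fat cells, lies at chr11:63573195-63616883 on the minus strand and was the most abundant member. It had 8157 and 5440 raw counts in control 2 and control 3, and 5533 and 5774 in cadmium 1 and cadmium 2. Normalized counts were 7718 and 5784 in the controls and 5507 and 5701 in the cadmium libraries. The cadmium libraries were both below both controls, but only just below control 3, and the controls differed from each other by more than the cadmium libraries did from control 3. DESeq2 gave a log2 fold change of -0.27 (standard error 0.28, adjusted p = 1.00). PLAAT3 was called lower without control 3 (-0.47, adjusted p = 0.00164), and was at -0.05 without control 2, so its call rested on which control was used. In the fit without control 3, 17.7% of all genes tested were called lower and 31.2% in either direction.

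The remaining PLAAT genes had far fewer reads. PLAAT1, the member on chromosome 3 (chr3:193241128-193277738, plus strand), had raw counts of 156, 81, 128 and 129 in control 2, control 3, cadmium 1 and cadmium 2. Its cadmium libraries fell between the controls, at a log2 fold change of 0.12 (standard error 0.48, adjusted p = 1.00). PLAAT2, which lies between PLAAT4 and PLAAT3 (chr11:63552770-63563379, minus strand), had 13, 27, 13 and 16 raw counts in that order. Its log2 fold change was -0.51 (standard error 0.99, adjusted p = 1.00). The groups overlapped in both genes.

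PLAAT5 (chr11:63461404-63491194, minus strand), whose product is known as an N-acyltransferase, had 22 raw counts in control 2, 0 in control 3, and 3 in each cadmium library. A count of 0 allows up to 3 counts, or 6 where both mates of a pair were counted, and the controls alone spanned the whole range of the gene. Its mean was below the level that independent filtering keeps, and it has no adjusted p. LGALS12, which encodes the lectin galectin-12 and lies between PLAAT5 and PLAAT3, had raw counts of 271, 2, 40 and 56 in control 2, control 3, cadmium 1 and cadmium 2. It shared with PLAAT5 the order of a high control 2 and a control 3 below both cadmium libraries. The fitted log2 fold change was -1.44 (standard error 2.15, adjusted p = 1.00). ENSG00000275598 and ENSG00000287412, the other genes in that stretch, were at 0 in every library.

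**Figure D1:**
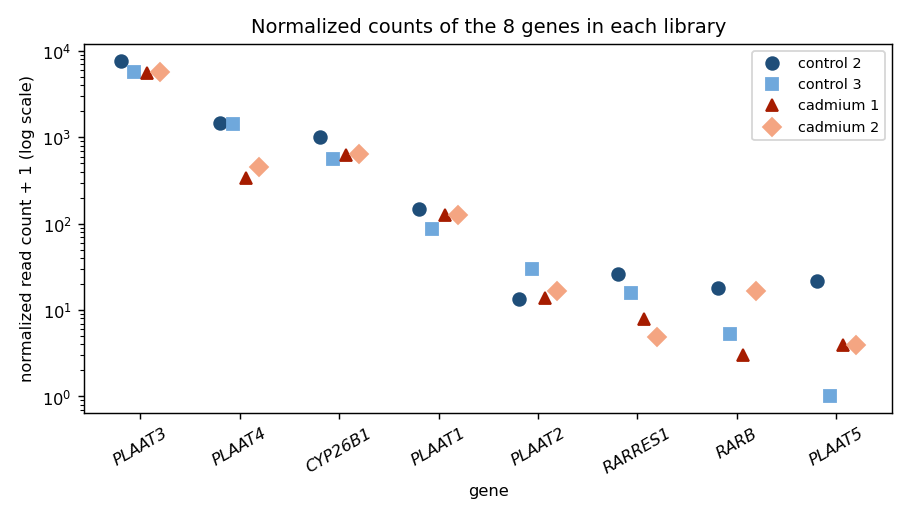
Normalized counts of the 8 members plus 1, on a log axis, with 1 point for each control and cadmium library. PLAAT4 is the only member whose cadmium libraries, at 337 and 449, stand well apart from controls that lie close together, at 1472 and 1431.

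RARRES1, a membrane protein first isolated, like PLAAT4, as a tazarotene-induced gene (chr3:158696892-158732489, minus strand), had 27, 14, 7 and 4 raw counts in control 2, control 3, cadmium 1 and cadmium 2. Both cadmium libraries lay below both controls. Its log2 fold change of -1.89 was near that of PLAAT4, but the standard error was 1.14 and the adjusted p 0.857. Of its 2029 exon bases, 292 (14.4%) are shared with MFSD1 and ENSG00000240207, and reads in such bases were dropped by the counting.

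RARB (chr3:24687887-25597932, plus strand) had 18, 4, 2 and 16 raw counts in the same order, so each group held a high and a low library. The fitted log2 fold change, for which no count was added, was -0.26 (standard error 1.51, adjusted p = 1.00). It was far smaller in size than the difference of 2.49 between the cadmium libraries themselves, taken as log2 of normalized counts with 1 added. CYP26B1, which encodes a retinoic acid hydroxylase (chr2:72129238-72147862, minus strand), had 1054, 532, 634 and 642 raw counts. Its cadmium libraries were nearly equal and lay between the controls, and the fitted log2 fold change was -0.31 (standard error 0.37, adjusted p = 1.00). It was called lower without control 3 (-0.67, adjusted p = 0.0125) and was at 0.16 without control 2, and the share of all genes called lower without control 3 was the 17.7% given for PLAAT3.

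Of the 7 members other than PLAAT4, 6 had an adjusted p from DESeq2, 0 were called at an adjusted p below 0.1, and 0 had an unadjusted p below 0.05, a level that 6.92% of all genes tested reached. edgeR and limma-voom also called 0 of them. Across all 19816 genes tested, 106 (0.535%) were called lower and 119 (0.601%) higher in cadmium-resistant cells, while edgeR and limma-voom called 0 in either direction, with 1506 and 1423 genes at an unadjusted p below 0.05. With upper-quartile factors the calls were 88 lower and 152 higher, a share of 63.3% higher against 52.9% in the reported fit. Both cadmium libraries were below both controls in 2 of the 7 members, PLAAT3 and RARRES1, and above both in 0, against 19.9% below and 20.3% above over all genes tested. A share of 2 in 7 is near that background.

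Levels were compared between genes as RPKM, in which reads are divided by the exon length in kb and scaled to the library's assigned reads. In control libraries PLAAT3 was at 34.0 to 42.8, PLAAT4 at 19.3 to 19.9, CYP26B1 at 2.12 to 3.52 and PLAAT1 at 1.34 to 2.16, the last a neighbouring range that overlapped that of CYP26B1. PLAAT2 was at 0.285 to 0.704, RARRES1 at 0.133 to 0.215, and PLAAT5 and RARB overlapped below these. In cadmium libraries PLAAT3 was at 32.6 to 33.1 and PLAAT4 at 4.73 to 6.18, and the order of the first 6 genes was the same, with RARB and PLAAT5 again overlapping at the bottom.

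The makeup of the PLAAT family transcripts differed accordingly. Summed over the 5 genes, the level was 64.7 and 56.0 RPKM in control 2 and control 3, and 39.7 and 41.7 in cadmium 1 and cadmium 2. PLAAT4 gave 29.9% and 35.6% of that sum in the controls and 11.9% and 14.8% in the cadmium libraries, while PLAAT3 gave 66.2% and 60.7%, then 82.2% and 79.5%. Per length, PLAAT4 stood at 45.2% and 58.6% of PLAAT3 in the controls and at 14.5% and 18.7% in the cadmium libraries. This ratio is taken within a library, so it does not depend on the scaling between libraries, but it holds the value of PLAAT4 that chose the set.

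**Figure D2:**
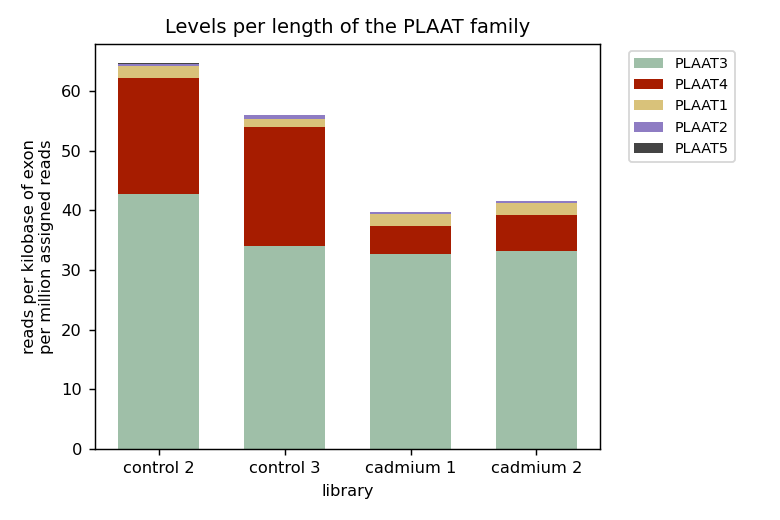
RPKM of the 5 PLAAT genes in each library, stacked in 1 bar per library. The PLAAT4 portion is 19.3 to 19.9 RPKM in the controls and 4.73 to 6.18 in the cadmium libraries, whereas PLAAT3 is at 32.6 or above in all of them.

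The surroundings of PLAAT4 on chromosome 11 were examined because 4 of the PLAAT genes are neighbours there. The 40 nearest genes that reached a mean of 100 normalized counts, 20 on each side, span chr11:62602218-64289500. Their median log2 ratio of cadmium to control means, with 1 added to each mean, was -0.24, against -0.06 over all 12924 such genes. Of these 40 neighbours, 0 were lower than PLAAT4. The fall of PLAAT4 chose the set, so this rank is a description and was not tested. The same neighbours had a median log2 ratio of -0.30 between control 3 and control 2, with 1 added as before. Over all such genes the median between the controls was -0.06. The region thus also differed between the controls, while PLAAT4 itself was at -0.04 between them. Around PLAAT3 the neighbours' median was -0.26, beside -0.27 for PLAAT3 itself, with 19 of 40 lower. Around CYP26B1, on chromosome 2, the median was -0.30, beside -0.30 for the gene. These neighbours of CYP26B1 had a median of -0.68 between control 3 and control 2, against -0.06 over all such genes, and CYP26B1 was at -0.82. The values of PLAAT3 and CYP26B1 were thus close to the medians of the genes beside them. Around PLAAT1 the median was 0.02, beside 0.12 for the gene, around PLAAT2 -0.27 beside -0.48, and around RARB 0.05 beside -0.23. RARRES1, at -1.72, and PLAAT5, at -1.52, lay well below their medians of 0.05 and -0.24. Of 40 neighbours, 0 were lower than RARRES1 and 1 was lower than PLAAT5. PLAAT2, RARB, RARRES1 and PLAAT5 all had few reads, and the added 1 made their ratios smaller in size than their fitted log2 fold changes.

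**Figure D3:**
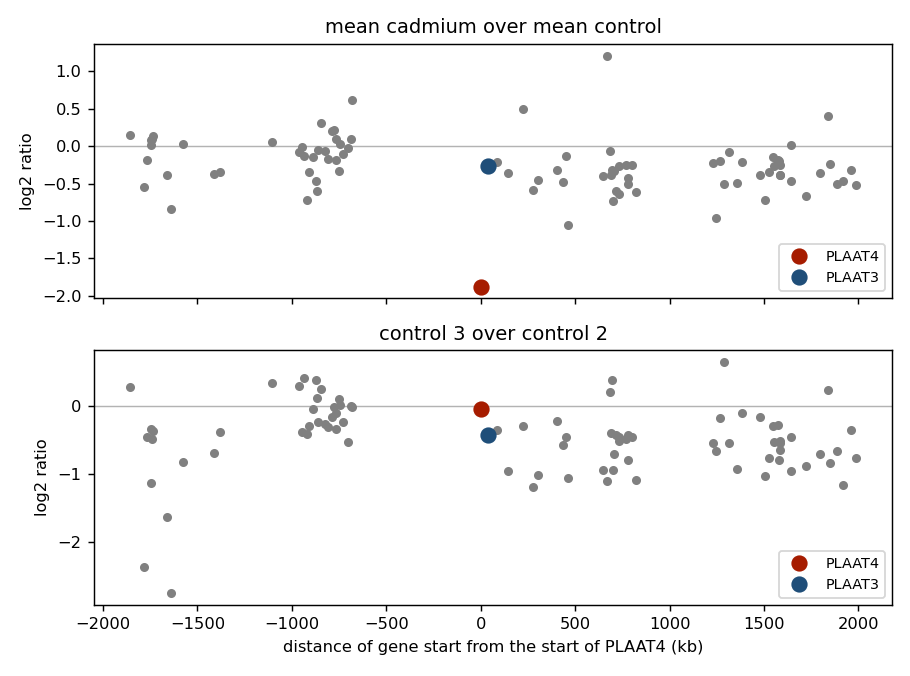
Genes within 2000 kb of the PLAAT4 start that reached a mean of 100 normalized counts, by distance from that start, with the log2 ratio of the cadmium to the control mean above and of control 3 to control 2 below. Each ratio was taken with 1 added to both of its values. PLAAT4 (red) is at -1.88 in the upper panel and at -0.04 in the lower, and PLAAT3 (blue) is at -0.27 and -0.42.

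The other genes of retinoid and N-acylethanolamine handling were taken as 6 lists with 72 genes in all, of which 52 had an adjusted p. Of these, 0 were called higher and 3 lower (5.77%, against 0.535% of all genes tested): DHRS3, RARRES2 and NAAA. The lists were drawn up with earlier results of these data known, so nothing particular to them is read from this share. Over the 51 genes whose mean reached 10 normalized counts, the median log2 fold change was -0.05, with 22 higher and 29 lower, against -0.03 over all genes with such a mean. The lists as a whole therefore lay near the middle of all genes, and 10 of their genes were at 0 in every library, among them ADH4, RBP4, CRABP1, RXRG, PRAME, CDX1, HOXA5, STRA8 and RAI2.

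**Figure D4:**
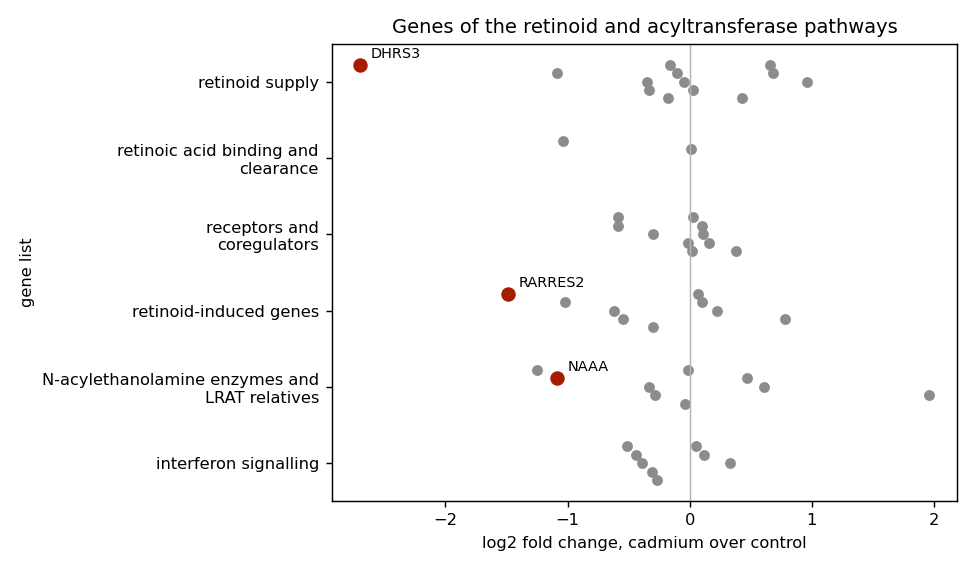
Log2 fold change (cadmium over control) of the list genes whose mean reached 10 normalized counts, by list, with the called genes in red. DHRS3 at -2.70, RARRES2 at -1.49 and NAAA at -1.09 are the called genes, and most of the others lie near 0.

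Among 21 genes of retinoid supply, 14 had an adjusted p. Of these, 1 was called lower, against 0.535% of all genes tested. DHRS3, which reduces retinal back to retinol and is itself known to be induced by retinoic acid, had 366 and 1029 normalized counts in control 2 and control 3, and 99.5 and 115 in cadmium 1 and cadmium 2. The cadmium libraries were close together and below both controls, which differed widely. Such an order of the groups was present in 19.9% of all genes tested. The log2 fold change was -2.70 (standard error 0.52, adjusted p = 0.0001). RDH11, a retinal reductase, was at 0.43 (adjusted p = 0.811), DGAT1, which can esterify retinol, at -0.33 (adjusted p = 0.958) and RDH13 at 0.03 (adjusted p = 1.00). ALDH1A3, which makes retinoic acid from retinal, was named after its values were seen: it was at 466, 204, 180 and 134 normalized counts, with a log2 fold change of -1.09 and an adjusted p of 0.572.

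Of the 5 genes of retinoic acid binding and clearance, 0 were called in either direction, and 1 of the 2 with an adjusted p had an unadjusted p below 0.05, against 6.92% of all genes tested. CRABP2, the carrier that brings retinoic acid to its receptors, had 959 and 434 normalized counts in the controls and 294 and 384 in cadmium 1 and cadmium 2, and its log2 fold change was -1.04 (standard error 0.45, adjusted p = 0.506). Its cadmium libraries lay below both controls, as they did in 19.9% of all genes tested, yet the difference between the controls was of the same order. FABP5, another carrier, was at 0.01. CYP26A1 and CYP26C1, the relatives of CYP26B1, did not exceed 3.95 normalized counts in any library.

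Of the 12 receptors and coregulators, 0 were called, and 1 of the 10 with an adjusted p had an unadjusted p below 0.05, near the 6.92% of all genes. RXRA, the common partner of the retinoic acid receptors, had 4816 and 6945 normalized counts in the controls and 3950 and 3888 in cadmium 1 and cadmium 2, and its log2 fold change was -0.59 (adjusted p = 0.718). RXRB was at 0.38 (adjusted p = 0.894) and NCOR1, a corepressor, at 0.03 (adjusted p = 1.00). RARA, named after its values were seen, was nearly level, at 2015, 2018, 2193 and 2150 normalized counts.

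Of 15 genes known to be induced by retinoids, 9 had an adjusted p, and 1 of these was called lower, against 0.535% of all genes tested. RARRES2, which encodes the secreted chemoattractant chemerin, had 859 and 1667 normalized counts in the controls and 385 and 513 in the cadmium libraries. All cadmium values were below both controls, as they were in 19.9% of all genes tested. The log2 fold change was -1.49 (standard error 0.41, adjusted p = 0.0389). TGM2, the tissue transglutaminase, had 156904 and 28257 normalized counts in the controls and 42478 and 48839 in the cadmium libraries. The cadmium libraries fell between the controls, and the log2 fold change of -1.02 had an adjusted p of 0.864. GPRC5A, a retinoic acid-induced membrane receptor, was at 0.22 and RAI14 at 0.07 (both adjusted p = 1.00).

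Of 11 genes of N-acylethanolamine metabolism and relatives of LRAT, the family to which PLAAT enzymes belong, 9 had an adjusted p. Of these 9, 1 was called lower, against 0.535% of all genes tested. NAAA, the acid amidase that breaks down N-acylethanolamines in lysosomes, had 1054 and 782 normalized counts in the controls and 428 and 432 in the cadmium libraries. Both cadmium libraries were below both controls, as they were in 19.9% of all genes tested. The log2 fold change was -1.09 (standard error 0.31, adjusted p = 0.0568). ABHD4, a lipase of an alternative route from N-acylated phospholipids, was at 0.47 (adjusted p = 0.726), GDE1 at -0.04 and LRATD2 at -0.33 (both adjusted p = 1.00). PLAAT enzymes as a family can make the precursors of these lipids, and NAAA is known for breaking the lipids down. No lipid was measured, and a link between PLAAT4 and NAAA was not tested.

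Of the 8 genes of interferon signalling, listed because PLAAT4 is also interferon-inducible, 0 were called and 0 had an unadjusted p below 0.05 in DESeq2, which for so few genes cannot be set apart from the 6.92% of all genes. JAK1 was at -0.39, STAT2 at 0.05 (both adjusted p = 1.00) and IFNGR2 at -0.51 (adjusted p = 0.757). The list's median log2 fold change was -0.29.

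The 3 calls changed when libraries were left out. DHRS3 was not called without cadmium 1 (adjusted p = 0.16), and RARRES2 and NAAA were called neither without cadmium 1 nor without cadmium 2 (adjusted p = 1). None of the 3 was called by edgeR (adjusted p = 0.62) or limma-voom (adjusted p = 0.669), while their log2 fold changes were below 0 under every setting run. Where calls were lost without cadmium 1, the log2 fold changes were -2.61 for DHRS3, -1.30 for RARRES2 and -1.09 for NAAA, and without cadmium 2 they were -1.72 for RARRES2 and -1.10 for NAAA. The size of the difference depended more on the controls: without control 3, DHRS3 was at -1.79 and RARRES2 at -0.95, and without control 2 they were at -3.27 and -1.89. NAAA went the other way, at -1.30 without control 3 and -0.86 without control 2.

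The neighbours of these genes were compared in the same way as those of PLAAT4. Around RARRES2, on chromosome 7, the median log2 ratio of the 40 neighbours was -0.37, below the -0.06 of all such genes, and 2 of the 40 were lower than RARRES2. With 10 neighbours on each side that median was -0.40. Around DHRS3 the median of 40 was -0.04, with 0 lower than the gene, and around NAAA it was -0.16, with 4 lower.

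**Figure D5:**
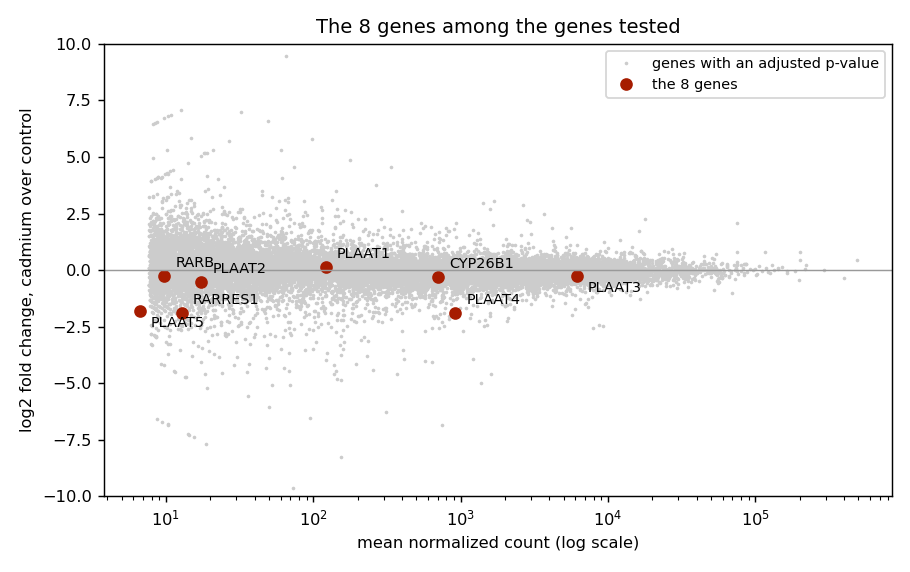
Log2 fold change (cadmium over control) against mean normalized count, on a log axis, for all genes tested (grey), with the members marked in red. Genes beyond 10 in either direction are not drawn. The spread widens at low counts, where RARRES1 (-1.89) and RARB (-0.26) lie, while PLAAT4 (-1.88) lies among well-covered genes.

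The genes whose pattern over the 4 libraries was most like that of PLAAT4 were sought among 14356 genes whose mean reached 50 normalized counts, by Euclidean distance of log2(normalized count + 1) values centred on each gene's mean. The nearest were NEURL1B, which encodes a ubiquitin ligase (0.255), TMEM121 (0.319), AFAP1L2, an adaptor of actin and kinase signalling (0.352), TNFRSF1B, the second TNF receptor (0.413), and EPN3, an endocytic epsin (0.426), against a median distance of 1.94. They were picked as the nearest of 14356 genes to the PLAAT4 values that chose the set, so small distances were built in. NEURL1B had 1575 and 1755 normalized counts in the controls and 448 and 598 in the cadmium libraries, and AFAP1L2 had 3614 and 3515, then 1082 and 1059. CYP26B1 (1.76), PLAAT3 (1.68) and PLAAT1 (2.15), the members that reached this level, were not near to PLAAT4 by this measure.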

How the data were processed

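Total RNA of control and cadmium-resistant MDA-MB-231 cells was sequenced from both fragment ends. By the methods of the study, the authors aligned trimmed reads with HISAT2 to hg38 and assigned them to Ensembl genes with featureCounts 2.0.1. The values the authors deposited are unnormalized counts of reads in each gene. Default options ignored strand, dropped reads shared between genes and counted each mate, and 70.6% to 71.5% of counts from 1 to 20 were even, so counts overstate fragments. The labels list the molecule as genomic DNA, whereas the values are RNA counts per gene. Control columns are numbered 2 and 3, and the labels number controls 1 and 2, so they were used by group only.

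Counts were fitted with DESeq2 1.42.0 in R 4.3.3 with group as the only term. Size factors were 0.94 to 1.06. The two-sided Wald p-values were adjusted by the Benjamini-Hochberg method over genes with a mean normalized count above 7.69, and calls used 0.1. edgeR 4.0.16 and limma 3.58.1 (voom) were alternatives, and the DESeq2 and edgeR fits were tested on simulated data. Symbols matched 61369 genes. The named genes were the members, called list genes and up to 4 of the most abundant per list, the genes between PLAAT5 and PLAAT3, and the 5 nearest to PLAAT4. Some genes that this rule names are not reported here. The members and lists were chosen with earlier results of these data known.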

Additional observations from a re-analysis of the deposited data

How the results depend on the processing

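The PLAAT4 difference lay between -2.11 and -1.70 on the log2 scale when each library was left out. DESeq2 called 119 genes higher and 106 lower. edgeR and limma-voom each called 0 higher, 0 lower and 0 of the list genes, with 1506 and 1423 genes at an unadjusted p below 0.05. Leaving out each library in turn, with the lone library assumed to vary like the other group, gave 9 to 2678 genes higher and 5 to 3511 lower, the highest counts without control 3 and the lowest without cadmium 2. Of the list genes, 0 (without cadmium 1) to 30 (without control 3, of 51 with an adjusted p) were called, against 3. In the fit without control 3, 31.2% of all genes tested were called in either direction. The lists were drawn up with earlier results of these data known, so nothing particular to them is read from the 30. Of the other members, 0 to 2 were called, the 2 being PLAAT3 and CYP26B1 without control 3, where 31.2% of all genes tested were called in either direction. Signs of uncalled members turned for PLAAT1 (-0.22) and PLAAT2 (0.21) without control 3, for PLAAT5 (3.92), RARB (1.06) and CYP26B1 (0.16) without control 2, and for RARB (0.56) without cadmium 1. NAAA was not called at a threshold of 0.05 (adjusted p = 0.0586). The causes of these differences were not tested. TMM factors, no independent filtering, a count minimum and halved counts, the last chosen after seeing the data, left every list gene called above on the same side of the threshold. No paired analysis was possible because the numbers in the control column names (2 and 3) differ from those in the labels (1 and 2), which leaves no number shared with the cadmium libraries that could be trusted. Depth limits the 4 members whose mean was below 20 normalized counts, with standard errors from 0.99 (PLAAT2) to 2.07 (PLAAT5).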
